A study of Mus musculus with 3 samples.

Results

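The cytosolic ribosomal proteins are the protein components of the ribosome that translates nuclear-encoded mRNAs. They were taken here as the 84 gene names on the array that start with Rpl, Rps, Rplp or Rpsa in the standard nomenclature, without the S6 kinases, out of 19712 named genes. The names comprise 46 large-subunit proteins, 3 stalk proteins of which Rplp0 is the scaffold, 31 small-subunit proteins including Rpsa, and 6 paralogues. The 3 stalk names are counted within the 46. The remaining name, Rps19bp1, belongs to a protein that binds Rps19 and is not part of the ribosome. The family was read by 145 of 41172 gene probes, and 46 of the names had several probes.

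The study compared RNA of adult liver, fetal liver and bone marrow from C57BL/6 mice. Adult livers were of 12-week-old mice, and fetal livers were taken at gestation day 13.5. The labels do not settle whether the stated age also holds for the bone marrow, and they give neither the sex nor the number of animals. Every RNA was hybridised to 1 single-colour Agilent array, so no comparison has replicates, and no test or p-value is given.

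A ribosome is built in the nucleolus from ribosomal RNA and an about equal supply of each ribosomal protein. Production of the proteins is coordinated with growth: their mRNAs start with a C followed by a run of pyrimidines, the 5′ terminal oligopyrimidine (TOP) tract, through which mTOR signalling sets their translation. Shortage of a ribosomal protein in humans underlies Diamond-Blackfan anaemia, in which red cell precursors fail. The fetal liver at this stage is a main site of red cell formation.

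The starts of 7 genes whose signals are described below are shown to set the annotated start beside the longest pyrimidine run around it: Rps18, whose probe was the brightest of the family in fetal liver and bone marrow, the 2 members lowest in adult relative to fetal liver, and 2 pairs of a paralogue and the gene it resembles. Each stretch covers 45 bases before and 15 bases after the start annotated by RefSeq on GRCm38.p6, read 5′ to 3′ on the gene's strand, and capitals mark the longest unbroken run of C and T. Where RefSeq lists several starts, the first entry is shown.
Rps18, chr17:33955651-33955710, minus strand: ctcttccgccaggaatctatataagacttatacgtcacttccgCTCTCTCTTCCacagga
Rpl14, chr9:120571472-120571531, plus strand: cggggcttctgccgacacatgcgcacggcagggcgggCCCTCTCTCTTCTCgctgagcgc
Rpl31, chr1:39367806-39367865, plus strand: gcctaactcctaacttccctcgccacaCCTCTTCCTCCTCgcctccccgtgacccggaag
Rpl22, chr4:152325681-152325740, plus strand: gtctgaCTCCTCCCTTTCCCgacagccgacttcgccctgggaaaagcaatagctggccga
Rpl22l1, chr3:28805463-28805522, plus strand: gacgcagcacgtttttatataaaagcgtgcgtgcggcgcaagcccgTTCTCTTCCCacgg
Rps27, chr3:90213634-90213693, minus strand: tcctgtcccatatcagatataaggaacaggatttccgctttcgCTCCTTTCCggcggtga
Rps27l, chr9:66946041-66946100, plus strand: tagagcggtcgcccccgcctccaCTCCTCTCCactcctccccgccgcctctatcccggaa

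In Rps18, Rpl14 and Rps27 the run spans the annotated start, and in Rpl22l1 it begins at base 2 after it. In Rpl31, Rpl22 and Rps27l the longest run lies upstream. RefSeq promoter entries were at hand for 57 of the 77 core members (the 84 names without the paralogues and Rps19bp1), 67 entries in all, each from 250 bases before to 50 bases after the start. Within 30 bases of the start on either side, a run of 8 or more pyrimidines stood in 50.7% of these 67 entries, against 22.9% of all 32851 mouse entries. The letters CGGAAG, searched on both strands, stood in 62.7% of member entries and 16.9% of all entries. CTTTCC, on either strand and free to lie inside a pyrimidine run, stood in 49.3% and 26.6%, and AAGATGGC on either strand in 10.4% and 2.75%. TATAAA on either strand stood in 8.96% of member entries and 13.6% of all entries. These are matches of letters and not sites shown to be used.

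The tissue labels were checked against marker genes. In adult liver all 6 hepatocyte genes gave signals well above background, with a summed signal of 654000, and 4 of them in fetal liver (73000), whereas none was in bone marrow (35.4). The 4 hepatoblast genes summed to 191 in adult liver, against 295000 in fetal liver and 798 in bone marrow. The 7 neutrophil and marrow myeloid genes summed to 814 (adult liver), 55900 (fetal liver) and 1320000 (bone marrow). The spots well above background made up 52.6% (adult liver), 58.7% (fetal liver) and 58.8% (bone marrow) of the gene spots of each array, and no spot was saturated. The 75th percentile of gene probe signals, to which each array was scaled, was 277 in adult liver, against 368 in fetal liver and 850 in bone marrow.

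Probes of ribosomal protein mRNAs took up the smallest part of the summed signal in adult liver. The 145 probes held 6.29% of the summed gene signal in adult liver, against 14.7% in fetal liver and 11.2% in bone marrow, a share that needs no scaling between arrays. Of the 100 brightest probes on each array, 9 belonged to the family in adult liver, against 39 in fetal liver and 37 in bone marrow. The median member's probe had a percentile rank among the probes that stand for all genes of 98.3 in adult liver, against 99.6 in fetal liver and 99.4 in bone marrow. These ranks describe probes, whose brightness depends on the probe as well as on the transcript. In total RNA from a mixed organ, a lower share of cells rich in these mRNAs and less mRNA per cell cannot be told apart.

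**Figure D1:**
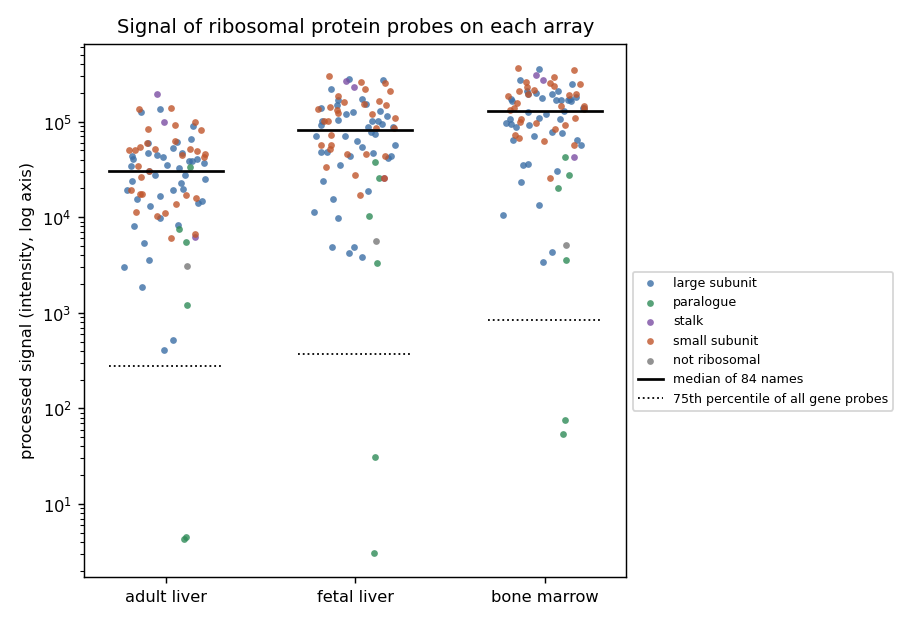
Processed signal (intensity, log axis) of the 84 names on each array, with 1 point per name, the family median as a solid line and the 75th percentile of all gene probes as a dotted line. The family medians are 30350 in adult liver, against 82100 in fetal liver and 127500 in bone marrow. The 2 lowest points are the paralogues Rpl3l and Rpl39l.

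A probe counted as measured where it was well above background by the scanner software's own flag. This held on all 3 arrays for 82 of the 84 names. The exceptions were paralogues: Rpl39l was not measured in adult liver, and Rpl3l was measured in bone marrow only. Each name was represented by 1 probe, the most often measured and then the brightest, and levels are log2 of the signal minus the array's 75th percentile. Since brightness depends on the probe, members are compared across tissues and not with each other. RefSeq lists 321 mouse symbols of ribosomal protein pseudogenes, and signal from such near copies cannot be told apart from that of the gene.

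Nearly every ribosomal protein mRNA was lower in adult liver than in fetal liver. The median difference of the 82 measured members was -1.02 on the log2 scale, or 2.03-fold lower in adult liver, while the median of all genes was 0.06. At least 2-fold lower levels were found for 44 of 83 members (53.0%), against a background of 26.4% of all genes compared. Only Rpl21 was at least 2-fold higher, where the background was 27.4%. In direction, 80 of 82 members lay below 0 (97.6%), against 48.6% of all genes. The scanner's error model gives a log2 error of 0.20 for such a difference, and 42 of the 82 members lay within that error of the 2-fold line, so the count of 44 depends on the exact threshold.

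The medians of the subunits lay close together between the 2 livers. The large-subunit median was -1.02 over 46 names and the small-subunit median -1.05 over 31 names. Of the small-subunit names, 18 were at least 2-fold lower in adult liver and every difference was below 0, from -1.93 for Rps19 to -0.51 for Rps2. Rps18, a small-subunit protein, had signals of 134000 in adult liver, against 298000 in fetal liver and 361000 in bone marrow, an adult over fetal liver difference of -0.74. A further probe of Rps18 with signals of 38500 (adult liver), 89700 (fetal liver) and 161000 (bone marrow) gave -0.81. In the large subunit 24 were at least 2-fold lower, and the differences ran from -3.18 for Rpl14 to 1.61 for Rpl21.

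The lowest values in adult liver relative to fetal liver were those of Rpl14, Rpl31, Rpl22l1, Rps19, Rps15a and Rplp0. Rpl14, a large-subunit protein, had a signal of 407 in adult liver, against 4890 in fetal liver and 3390 in bone marrow. It was 9.04-fold lower in adult than in fetal liver after scaling (probe at chr9:120483689-120483748, mm9). Rpl31, also of the large subunit, had signals of 522 (adult liver), 3790 (fetal liver) and 4360 (bone marrow). Its adult liver signal was 5.47-fold below fetal liver, and a further Rpl31 probe with signals of 206 (adult liver), 1870 (fetal liver) and 1900 (bone marrow) gave 6.83-fold. Rps19, the gene most often mutated in Diamond-Blackfan anaemia in humans, read 17100 (adult liver), 86500 (fetal liver) and 91300 (bone marrow) by a probe for a cDNA clone. A probe for the RefSeq transcript read 2330 (adult liver), 3610 (fetal liver) and 7140 (bone marrow), so the log2 difference of adult against fetal liver was -1.93 by the brighter probe and -0.22 by the dimmer. Rps15a, a small-subunit protein, had signals of 10400 (adult liver), 45500 (fetal liver) and 97200 (bone marrow) and was 3.29-fold lower in adult than in fetal liver.

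The highest values in adult liver relative to fetal liver were those of Rpl21, Rps27l, Rpl36al, Rplp1, Rpl10 and Rpl37a. Rpl21, of the large subunit, had a signal of 9700 in adult liver, against 4220 in fetal liver and 13400 in bone marrow by a probe for a cDNA clone. Its RefSeq probe read 86.5 (adult liver), 297 (fetal liver) and 451 (bone marrow). The first puts adult liver 3.05-fold above fetal liver and the other puts it 2.58-fold below, so the direction of Rpl21 rests on the choice of probe. Rpl10, the large-subunit protein next to the peptidyl transferase centre, read 34600 (adult liver), 48400 (fetal liver) and 107000 (bone marrow) and differed by -0.07, within the scanner's error. Its brightest probe lies on chromosome 8 of mm9 and not on X, where the gene lies, and its X-linked probe gave -0.16. Rpl12 is the other member whose probe maps elsewhere, to chromosome 10 instead of 2.

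Whether fetal liver or bone marrow was higher depended on the scaling. After scaling to the 75th percentile the family median was 0.70, or 1.63-fold higher in fetal liver, while the median of all genes was 0.25 and the family lay 0.46 above it. At least 2-fold higher levels were found for 15 of 84 members (17.9%), below the background of 24.9%, and only Rpl4 was at least 2-fold lower, against a background of 17%. In direction, 72 of 83 members lay above 0 (86.7%), against 59.7% of all genes. With quantile normalization the median turned to -0.17, and with spike-in scaling to -1.70. Relative to the median of all genes these were -0.28 and 0.46.

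The highest fetal liver values relative to bone marrow were those of Rpl14, Rpl41, Rps19bp1, Rpl27a, Rps2 and Rpl36. Rpl41, the smallest ribosomal protein, read 90000 in adult liver, against 274000 in fetal liver and 244000 in bone marrow. It was 1.38 log2 units higher in fetal liver than in bone marrow. Rpl27a read 3030 (adult liver), 11400 (fetal liver) and 10600 (bone marrow), a difference of 1.31. Rps2, of the small subunit, read 138000 (adult liver), 261000 (fetal liver) and 254000 (bone marrow), a difference of 1.25, and its further measured probe read 59000 (adult liver), 122000 (fetal liver) and 141000 (bone marrow).

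The lowest fetal liver values relative to bone marrow were those of Rpl4, Rpl29, Rpl21, Rpl18, Rpl3 and Rpl13a, all of the large subunit. For Rpl21 this rests on the probe for a cDNA clone, at -0.46, while its RefSeq probe gave 0.61. Rpl4, which lines the peptide exit tunnel, read 1880 in adult liver, against 4850 in fetal liver and 23500 in bone marrow. After scaling it was 2.10-fold lower in fetal liver than in bone marrow and 4.07-fold lower in adult liver than in bone marrow. Rpl29 read 3550 (adult liver), 9720 (fetal liver) and 35600 (bone marrow), and the fetal liver over bone marrow differences of its 4 probes ran from -0.70 to -0.38. Rpl3, a core protein near the peptidyl transferase centre, read 13000 (adult liver), 35200 (fetal liver) and 92600 (bone marrow), a difference of -0.19 that is within the scanner's error.

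Adult liver was also lower than bone marrow in the median, and whether this gap was smaller than that to fetal liver depended on the scaling. After scaling to the 75th percentile the family median was -0.37, or 1.29-fold lower in adult liver, while the median of all genes was 0.18. At least 2-fold lower levels were found for 18 of 83 members (21.7%), below the background of 27%. The 2 members Rps27l and Rpl21 were at least 2-fold higher, where the background was 32.9%. For Rpl21 the difference was 1.15 by the probe for a cDNA clone and -0.76 by its RefSeq probe. In direction, 64 of 82 members lay below 0 (78.0%), against 45.6% of all genes. With quantile normalization the median was -1.51 over bone marrow and -1.38 over fetal liver, and with spike-in scaling -3.36 and -1.61. The lowest were Rpl4, Rpl29, Rps15a, Rpsa, Rpl31 and Rpl14. The highest were Rps27l, Rpl21, Rplp1, Rps19bp1, Rps2 and Rpl37a.

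**Figure D2:**
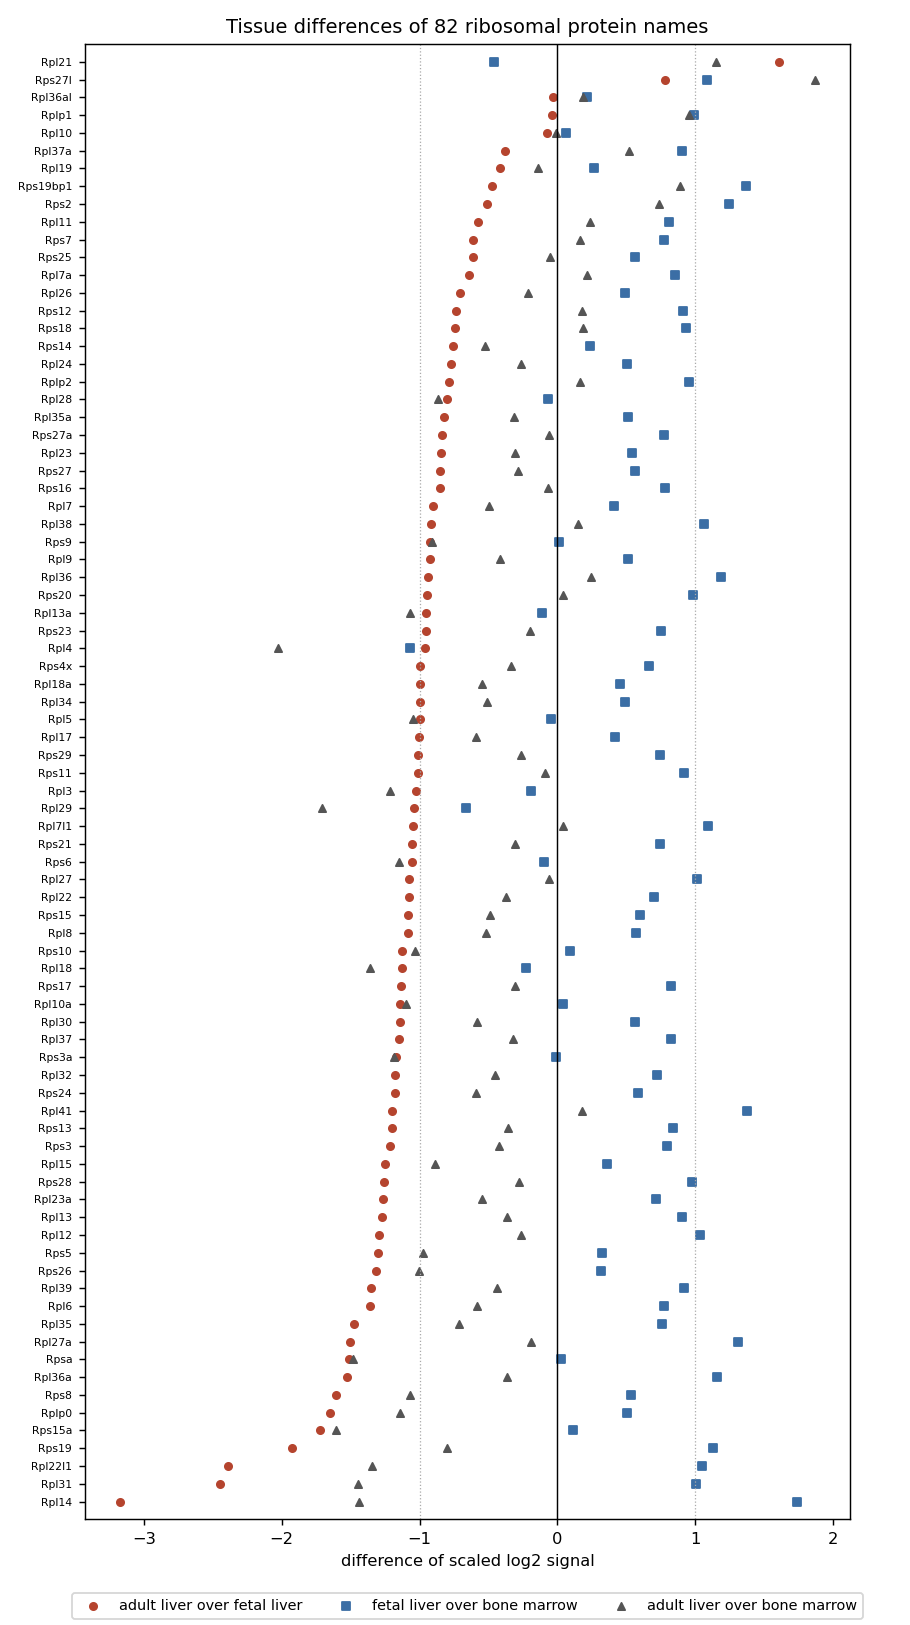
Differences of scaled log2 signal for the 82 names measured on all 3 arrays, sorted by adult liver over fetal liver (circles), with fetal liver over bone marrow as squares and adult liver over bone marrow as triangles; dotted lines mark a 2-fold difference. All circles but those of Rpl21 and Rps27l lie left of 0, and most squares lie right of it.

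The scaled level was highest in fetal liver for 71 of the 82 measured members (86.6%), against 33.1% of the 11688 genes measured everywhere. The order fetal liver, bone marrow, adult liver held for 55 members, and fetal liver, adult liver, bone marrow for 16. Bone marrow was highest for 9 members and adult liver for Rps27l and Rpl21, the latter by its cDNA clone probe but not by its RefSeq probe. Without any scaling, bone marrow had the highest signal for 76 of 82 members and adult liver the lowest for 80. That order is also the order of the arrays' 75th percentiles, 277 (adult liver), 368 (fetal liver) and 850 (bone marrow). The same shares over all genes were not counted without scaling, so the unscaled order is no separate support for the position of adult liver.

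Spike-in RNAs added at labelling gave a further view of signal at the bright end. For the 6 spike-ins of middle brightness, the unscaled log2 difference had a median of 0.15 for adult over fetal liver, 1.23 for fetal liver over bone marrow and 1.39 for adult liver over bone marrow. For the brightest spike-in it was 0.01 for adult over fetal liver, 0.49 for fetal liver over bone marrow and 0.50 for adult liver over bone marrow. Members brighter than the second-brightest spike-in numbered 7 in adult liver, against 38 in fetal liver and 67 in bone marrow. The part of this in the differences between tissues was not tested. Without the members in the brightest 1% of gene probes, the fetal liver over bone marrow median was 0.36 over 20 members.

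Scaling by a constant moves all members of an array together, so differences among members do not depend on it. The standard deviation of the 82 log2 differences of adult over fetal liver was 0.59 across members, against 2.06 across all genes. Across members it was 0.49 for fetal liver over bone marrow and 0.66 for adult liver over bone marrow, against 1.60 and 2.37 across all genes. Members are not replicates, and these values describe the spread of the family's differences. Most members' probes were brighter than those of most genes, and no set of genes of like brightness was compared. Within 1.5-fold of the family median lay 68 of 82 members for adult over fetal liver. The count was 62 of 83 when fetal liver was set against bone marrow and 55 of 82 when adult liver was. Of all measured genes, 30.4% lay as near to their own median for adult over fetal liver, 43.3% for fetal liver over bone marrow and 27.4% for adult liver over bone marrow.

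A few members departed from the family median by at least 2-fold. The shares over all genes that follow were again not matched for brightness. Of all measured genes, 50.8% departed as far from their own median between adult and fetal liver, 35.3% when fetal liver was set against bone marrow, and 55.3% in the remaining comparison, while the members that did so numbered 5 of 82, then 4 of 83, then 11 of 82. Between adult and fetal liver, Rpl21 and Rps27l lay above it and Rpl14, Rpl31 and Rpl22l1 below. Between fetal liver and bone marrow, Rpl14 lay above and Rpl4, Rpl29 and Rpl21 below. Between adult liver and bone marrow, Rps27l, Rpl21, Rplp1, Rps19bp1 and Rps2 lay above and Rpl4, Rpl29, Rps15a, Rpsa, Rpl31 and Rpl14 below. In that comparison the 41 brighter members had a median difference of -0.26 and the 41 dimmer members -0.80. Rpl21 is named by its cDNA clone probe, and with the mean of its probes it no longer departed in either comparison with bone marrow. Rpl14 lay 4.46-fold below the family median between adult and fetal liver, and its probe was the dimmest of the core members in adult liver.

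The stalk of the large subunit recruits the elongation factors. Rplp0, its scaffold, had signals of 6220 in adult liver, against 25900 in fetal liver and 42100 in bone marrow, each a mean of 10 spots of 1 probe whose log2 values had a standard deviation of 0.03 to 0.04. The log2 difference of adult over fetal liver was -1.65. The file holds 2 further probes under Arbp, an older name of the same gene, which lie outside the naming rule. They read 135000 (adult liver), 235000 (fetal liver) and 294000 (bone marrow), and 30600 (adult liver), 115000 (fetal liver) and 152000 (bone marrow), with adult over fetal liver differences of -0.39 and -1.50. Rplp1 read 193000 (adult liver), 263000 (fetal liver) and 305000 (bone marrow), a difference of -0.04, and Rplp2 read 99300 (adult liver), 228000 (fetal liver) and 272000 (bone marrow), a difference of -0.79. Between the livers the differences in the stalk were all below 0, that of Rplp1 within the scanner's error. Their sizes spread widely, also between probes of Rplp0. For adult liver over bone marrow the differences were 0.96 for Rplp1, 0.16 for Rplp2 and -1.14 for Rplp0.

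Rpsa, the small-subunit protein also known as the laminin receptor, had signals of 6710 in adult liver, against 25400 in fetal liver and 57500 in bone marrow. It was 2.85-fold lower in adult than in fetal liver and differed by 0.03 log2 units between fetal liver and bone marrow. A much dimmer Rpsa probe read 64.3 (adult liver), 754 (fetal liver) and 461 (bone marrow). By that probe adult liver was 8.83-fold below fetal liver, and fetal liver was 1.92 log2 units above bone marrow. Rpl5 and Rpl11, which bind 5S ribosomal RNA and can inhibit Mdm2, read 32600 (adult liver), 86600 (fetal liver) and 207000 (bone marrow) for Rpl5, and 65800 (adult liver), 130000 (fetal liver) and 171000 (bone marrow) for Rpl11. The adult over fetal liver difference was -0.57 for Rpl11, and that of Rpl5 lay just short of 2-fold.

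The genes mutated in Diamond-Blackfan anaemia in humans include 19 members. All 19 were lower in adult than in fetal liver, from -2.45 for Rpl31 to -0.57 for Rpl11. The same held for 97.6% of the measured members of the whole family. The median of the 19 was -1.13, against -1.02 for the family. At least 2-fold lower were 13 of the 19, against 53.0% of the family and 26.4% of all genes. The 13 include Rps19 by its probe for a cDNA clone, at -1.93, while its RefSeq probe gave -0.22. Between fetal liver and bone marrow, 3 were at least 2-fold higher in fetal liver, namely Rps19, Rpl31 and Rpl27, a share below the background of 24.9%. For Rps19 this rests on the probe for a cDNA clone, at 1.13, while its RefSeq probe gave 0.22. The median of the 19 members was 0.59 between fetal liver and bone marrow, against 0.70 for the whole family. The list of genes of that disease used here also holds 2 that encode no ribosomal protein. The red cell transcription factor Gata1 had signals of 42.2 (adult liver), 3250 (fetal liver) and 4430 (bone marrow). The Rps26 chaperone Tsr2 had 45.1 (adult liver), 60.1 (fetal liver) and 78.8 (bone marrow).

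The paralogues are close copies of ribosomal protein genes that lie elsewhere in the genome. Rps27l, which is known as a p53 target, had the highest scaled level in adult liver, while Rps27 was highest in fetal liver. Rps27l had signals of 33300 in adult liver, against 25700 in fetal liver and 27900 in bone marrow. Rps27 had 63100 (adult liver), 151000 (fetal liver) and 236000 (bone marrow). The adult over fetal liver difference was 0.78 for Rps27l and -0.85 for Rps27, 1.63 log2 units or 3.10-fold apart. Between adult liver and bone marrow they were 4.46-fold apart. These gaps between genes are the same under every scaling by a constant, and each gene was read by 1 probe.

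Rpl22l1, the paralogue of Rpl22, went the other way. It had signals of 5460 (adult liver), 38100 (fetal liver) and 42500 (bone marrow), while those of Rpl22 were 19400 (adult liver), 54400 (fetal liver) and 77100 (bone marrow). The adult over fetal liver difference was -2.39 for Rpl22l1 and -1.08 for Rpl22, 2.49-fold apart. A further Rpl22 probe of 3500 (adult liver), 4010 (fetal liver) and 4450 (bone marrow) gave 0.21, so the gap is wider by that probe. Rpl36al had signals of 7510 (adult liver), 10200 (fetal liver) and 20300 (bone marrow), a difference of -0.03 between adult and fetal liver. The X-linked Rpl36a had 23800 (adult liver), 91200 (fetal liver) and 94200 (bone marrow), a difference of -1.53. A further Rpl36a probe of 32400 (adult liver), 70200 (fetal liver) and 81500 (bone marrow) gave -0.71, so the gap is narrower by that probe. Another Rpl36a probe gave -1.50. Rpl7l1 had 1210 (adult liver), 3320 (fetal liver) and 3600 (bone marrow), a difference of -1.05 against -0.90 for Rpl7, which is smaller than the scanner's error of a single difference. A further Rpl7l1 probe gave 0.23.

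**Figure D3:**
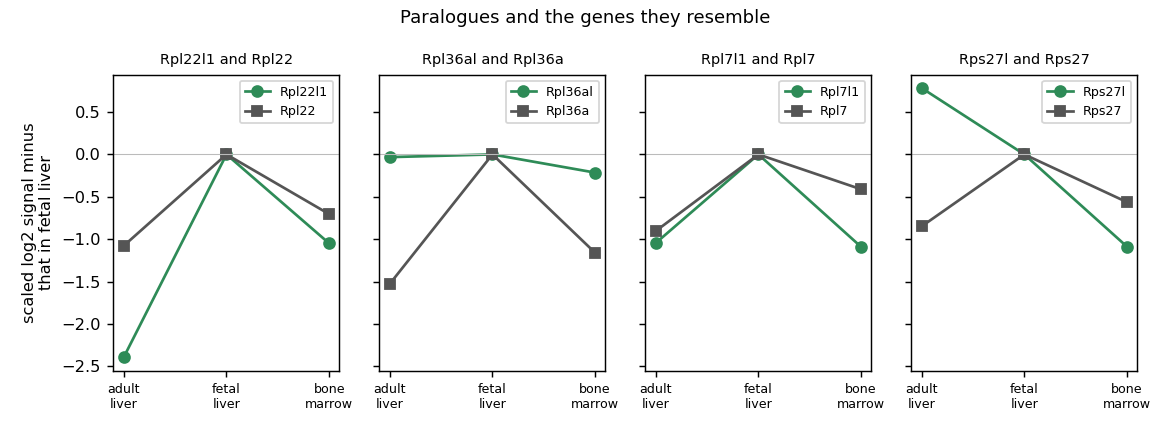
Scaled log2 signal of 4 paralogues (circles) and the genes they resemble (squares) in adult liver, fetal liver and bone marrow, each minus its own fetal liver value. In adult liver Rps27l lies at 0.78 while Rps27 lies at -0.85, and Rpl22l1 lies at -2.39 while Rpl22 lies at -1.08.

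Rpl3l and Rpl39l gave little signal anywhere. Rpl3l, known from striated muscle, read 4.29 in adult liver, against 3.10 in fetal liver and 53.9 in bone marrow, the last alone being well above background. Rpl39l, known from testis, read 4.49 in adult liver, not well above background, 31.0 in fetal liver and 75.3 in bone marrow. The difference of Rpl39l between fetal liver and bone marrow was -0.07 after scaling.

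Probes of 1 gene did not always give the same answer. Among genes with at least 2 measured probes, the probes had opposite signs in 4 of 40 genes when the 2 livers were compared. The same held for 7 of 42 genes in the comparison of fetal liver with bone marrow and for 15 of 40 in that of adult liver with bone marrow. A group of 23 probes of 22 genes was at least 20 times dimmer than the gene's brightest probe, and most were designed on cDNA clones instead of the RefSeq transcript. This group was set after its values were seen. Of its 16 probes measured in fetal liver and bone marrow, 13 were at least 2-fold higher in fetal liver and 8 at least 4-fold, with a median of 2.07. Among all 14524 probes in the same span of signal, 24.3% were at least 2-fold higher and the median was 0.16.

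The examples of such dim probes that follow were chosen after their values were seen. The Rps13 probe on a cDNA clone read 99.2 in adult liver, against 558 in fetal liver and 82.5 in bone marrow, while the RefSeq probe read 48900 (adult liver), 149000 (fetal liver) and 192000 (bone marrow). The fetal liver over bone marrow difference was 3.97 by the dim probe and 0.84 by the bright one. The Rps28 probe on a cDNA clone read 94.6 (adult liver), 629 (fetal liver) and 108 (bone marrow), and a Rps24 probe on a cDNA clone read 53.7 (adult liver), 367 (fetal liver) and 62.1 (bone marrow). In the large subunit the Rpl11 probe on a cDNA clone read 180 (adult liver), 770 (fetal liver) and 164 (bone marrow). Each of the 4 was highest in fetal liver, with adult liver and bone marrow near each other before scaling. Between adult and fetal liver, 12 of 14 measured dim probes were at least 2-fold lower in adult liver, with a median of -1.77. Among all 9093 probes in the same span of signal, 26.3% were at least 2-fold lower and the median was -0.07. For adult liver over bone marrow the 14 measured dim probes had a median of 0.67, against -0.37 for the probes that stand for the genes. In that comparison 6 dim probes were at least 2-fold higher and 2 lower in adult liver. Of all 11071 probes in the same span, 31% were higher and 25.7% lower, with a median of 0.12.

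**Figure D4:**
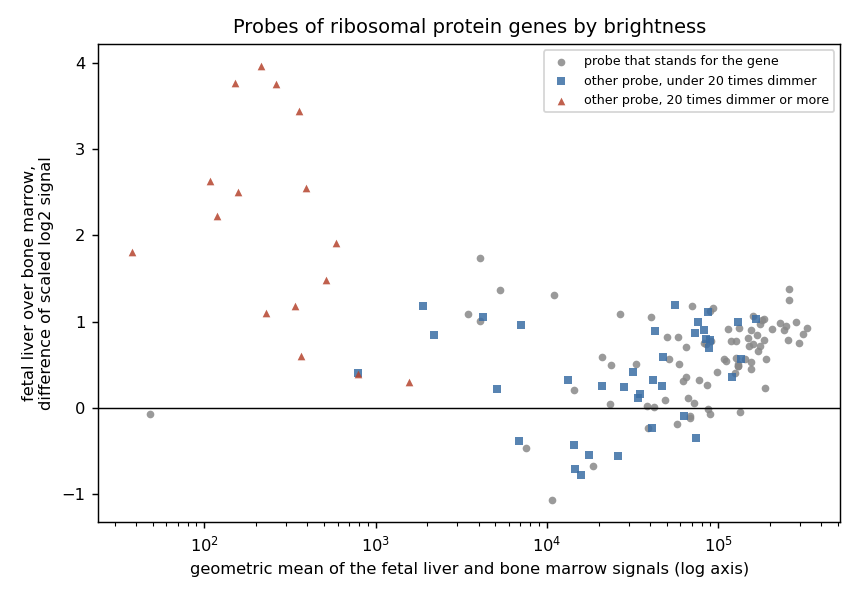
Difference of scaled log2 signal of fetal liver over bone marrow for all measured probes of the family against the geometric mean of the 2 signals (log axis). Probes at least 20 times dimmer than their gene's brightest (triangles) lie at the left and mostly above 1, while the probes that stand for the genes (circles) lie mostly between 0 and 1.

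The machinery that makes and uses ribosomes was set beside the family. Over all genes, the shares past 2-fold were 26.4% lower and 27.4% higher in adult than in fetal liver. Of 46 ribosome assembly factors, 35 were at least 2-fold lower in adult than in fetal liver and 1 was higher, with a median of -1.78. The nucleolar protein Npm1 had signals of 3350 in adult liver, against 42100 in fetal liver and 51400 in bone marrow. The box C/D particle protein Nop56 had 1970 (adult liver), 38000 (fetal liver) and 27100 (bone marrow). Of 15 RNA polymerase I genes compared, 11 were at least 2-fold lower in adult liver, with a median of -1.49. The translation initiation factors had 15 of 33 lower and a median of -0.91, and the aminoacyl-tRNA synthetases 10 of 20 lower, 1 higher and a median 2.01-fold lower in adult liver. Of 9 elongation and release factors 6 were lower, yet Eef1a1, which delivers tRNA, differed by 0.14 and Eef2, the translocase, by 0.70.

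Other mRNAs with a TOP tract had a median difference between the livers nearer to 0 than that of the family. Fau and Rack1, which supply or form parts of the small subunit, had adult over fetal liver differences of -0.59 and -0.78. The list of 18 other TOP mRNAs, which also holds these genes, had 8 at least 2-fold lower, where the background was 26.4%, and a median of -0.78. Of 15 regulators of ribosome production, 4 were lower in adult liver and 1 was higher, at a list median of -0.02, so the share lower lay near that background. Myc, a transcription factor that drives ribosome production, read 77.6 in adult liver, against 3070 in fetal liver and 4940 in bone marrow, whereas Mtor read 491 (adult liver), 346 (fetal liver) and 759 (bone marrow).

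Between fetal liver and bone marrow, 20 of 46 assembly factors were at least 2-fold higher in fetal liver and 1 was lower, against 24.9% and 17% of all genes, with a median of 0.93 beside 0.70 for the family. The polymerase I genes had a median of 0.90, the initiation factors 0.43 and the synthetases 0.60. No list was recomputed under other scalings. For the family the sign of fetal liver over bone marrow depended on the scaling, at -0.17 with quantile normalization and -1.70 with spike-ins. Whether the assembly factors stay higher in fetal liver under those scalings was not tested. Between adult liver and bone marrow the assembly factors had a median of -0.78, where 18 were at least 2-fold lower in adult liver and 1 was higher, against 27% and 32.9% of all genes.

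Markers of dividing cells and of red cells were also lower in adult liver. The 5 proliferation genes Ccna2, Ccnb1, Cdk1, Mki67 and Top2a summed to a signal of 162 in adult liver, against 89600 in fetal liver and 176000 in bone marrow. All 5 were at least 2-fold lower in adult liver than in either blood-forming tissue, and 3 of them were not well above background there. The 6 erythroid genes summed to 15300 in adult liver, of which Alas2, the first enzyme of heme synthesis in red cells, gave 15200. They summed to 230000 in fetal liver and to 350000 in bone marrow. Their part in the differences of the ribosomal protein mRNAs was not tested.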

How the data were processed

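Signals came from 3 Agilent scanner files, 1 per tissue. The scanner software was Agilent Feature Extraction 10.5.1.1, per the submitters' processing notes. Per the file headers, the deposited processed signal intensity is background-subtracted and detrended within the array, with nothing normalized between arrays. In the authors' deposited table the normalized ratio column equals the error of that signal divided by a constant per array (29.3 on the adult liver array, 37.8 on that of fetal liver, 85.3 on that of bone marrow), within 1% on 45018 spots of each array, so it served only as an alternative. Its 6 other value columns were not used.

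Control and outlier spots were left out, probes were averaged on the log2 scale, and each array's 75th percentile was subtracted (Python 3.11.15, pandas 2.3.3; limma 3.58.1 for alternatives). Probes without a RefSeq or file name (8491) were left out of counts over genes. A difference counted as called at 2-fold or more. Where only 1 of 2 tissues was well above background, the bound was used in counts. The steps were tested on simulated arrays. Genes named per comparison were the 6 highest and the 6 lowest measured, plus paralogues with the genes they resemble, the stalk, Rpsa and the Diamond-Blackfan genes; others serve as examples. The rule's 5 brightest and 5 dimmest members per tissue are not listed, since signals of different probes are not compared. The members and lists were chosen with earlier results of these data known. Array number limits the precision: 1 array per tissue gives no spread between animals.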

Additional observations from a re-analysis of the deposited data

How the results depend on the processing

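Alternatives were scaling to the median, to a trimmed mean and to spike-ins, quantile normalization, normexp background correction, the authors' normalized column, the mean of a gene's probes, the dimmest probe, members measured on all arrays, members below the brightest 1%, members without paralogues, percentile ranks and other thresholds. Probes on the gene's own chromosome and residuals from a line on level were added after seeing the data. The adult over fetal liver median stayed below 0 in all 12 log2 alternatives (-1.61 to -0.97), as did adult over marrow (-3.36 to -0.29). Fetal liver over bone marrow turned to -0.17 with quantile normalization and to -1.70 with spike-ins. In addition, it was 0.26 with median scaling, 0.50 with the trimmed mean and 0.36 without the brightest members. The adult over fetal liver median was -1.38 with quantile normalization and -1.61 with spike-ins, and the adult over marrow median -1.51 and -3.36, or -0.76 with median scaling. Members at least 2-fold lower in adult than in fetal liver numbered 68 with quantile normalization, 76 with spike-ins, 72 at 1.5-fold and 3 at 4-fold, and those higher 0 with probe means, 2 at 1.5-fold and 0 at 4-fold. Between adult liver and bone marrow, 66 (quantile), 84 (spike-ins) and 1 (4-fold) were lower, and 1 each (probe means, normexp, quantile, median), 0 (spike-ins), 5 (1.5-fold) and 0 (4-fold) were higher in adult liver. Between fetal liver and bone marrow, 23 (probe means), 8 (normexp), 5 (quantile), 1 (median), 0 (spike-ins), 45 (1.5-fold) and 0 (4-fold) were higher, and 2 (probe means), 3 each (quantile, median, 1.5-fold), 83 (spike-ins) and 0 (4-fold) were lower in fetal liver. Members departing from the family median numbered 8 between adult and fetal liver and 8 between fetal liver and bone marrow with probe means, and 7 between adult liver and bone marrow as residuals. The members named changed too. Probe means kept 4 of the 5 between adult and fetal liver and 2 of the 4 between fetal liver and bone marrow. Residuals kept 6 of the 11 between adult liver and bone marrow, without Rpl14, Rpl29, Rpl31, Rps2 and Rpsa. Bone marrow's share of signal was 13.5% with quantile normalization. The cause of these changes was not tested. No paired analysis was possible because each tissue has 1 array.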
